A study of Mus musculus with 48 samples.

Results

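The genes described are 38 of the 55487 gene rows of an RNA count table. They were chosen by name, with earlier results of these data known, and fall into 2 lists that are kept apart: 22 genes that sense or repair DNA breaks, and 16 genes that the p53 protein is known to switch on. RNA came from cells of the limbs of mice of the C57BL/6 strain, taken on postnatal day 3 and sorted into 3 populations: SSC, or skeletal stem cells; pBCSP, or pre-bone, cartilage and stromal progenitor cells; and BCSP, or bone, cartilage and stromal progenitor cells. KO mice carried floxed alleles of Ptip and a Col2a1-cre transgene, driven through the gene of cartilage collagen II, and WT mice carried the floxed alleles without Cre, so the floxed alleles are common to both genotypes. Each of the 3 populations had 2 KO and 2 WT libraries, 12 in all, and the labels do not say whether replicates came from separate animals or whether animals were pooled, so p-values measure a spread that may be technical. Cre under this control acts in cells that switch on Col2a1, and the labels do not give how many sorted cells had lost Ptip.

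Ptip, now named Paxip1, encodes a protein with BRCT domains that serves H3K4 methyltransferase complexes and also binds 53BP1 (Trp53bp1) at DNA double-strand breaks. 53BP1 with its partners RIF1 and PTIP shields broken ends and favours end joining, while BRCA1 favours resection and repair by homologous recombination. The kinases ATM and ATR signal breaks onward to CHK1, CHK2 and p53, and p53 then raises genes that stop the cell cycle, drive cell death or feed back on p53 itself.

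Promoter windows of 6 of the genes described further on are printed: Ccng1, Sesn1, Aen and Mdm2 among the p53 targets, and Topbp1 and Xrcc6 among the break response genes. Only windows with a match to the letters marked in capitals were open to this choice. The windows of Trp53bp1, Xrcc5, Bbc3 and Sesn2, also described further on, held no such match. Sequences are from RefSeq, build GRCm38.p6, and run 5′ to 3′ on the strand of the gene, with 250 bases before and 50 after the annotated start. RefSeq windows were matched for 27 of the 38 genes, 16 of the break response and 11 of the p53 targets. Capitals mark a half-site of the p53 response element in p53 targets and, in break response genes, one of the E2F-type words TTTGGCGC, TTTCGCGC and TTTCCCGC, searched on both strands. E2F factors are known for switching on genes of DNA replication.
Ccng1, chr11:40755237-40755536, minus strand: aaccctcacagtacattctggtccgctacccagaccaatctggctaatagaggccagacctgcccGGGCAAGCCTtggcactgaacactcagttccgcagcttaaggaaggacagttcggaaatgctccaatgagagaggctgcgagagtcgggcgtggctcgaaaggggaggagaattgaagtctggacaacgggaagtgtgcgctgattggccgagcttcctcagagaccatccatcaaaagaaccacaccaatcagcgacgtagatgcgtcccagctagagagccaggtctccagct
Sesn1, chr10:41887189-41887488, plus strand: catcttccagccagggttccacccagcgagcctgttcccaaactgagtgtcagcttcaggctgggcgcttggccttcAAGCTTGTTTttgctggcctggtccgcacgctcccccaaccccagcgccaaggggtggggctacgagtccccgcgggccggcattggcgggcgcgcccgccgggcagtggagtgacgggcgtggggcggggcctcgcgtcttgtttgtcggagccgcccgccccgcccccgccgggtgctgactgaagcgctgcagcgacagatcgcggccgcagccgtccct
Aen, chr7:78895808-78896107, plus strand: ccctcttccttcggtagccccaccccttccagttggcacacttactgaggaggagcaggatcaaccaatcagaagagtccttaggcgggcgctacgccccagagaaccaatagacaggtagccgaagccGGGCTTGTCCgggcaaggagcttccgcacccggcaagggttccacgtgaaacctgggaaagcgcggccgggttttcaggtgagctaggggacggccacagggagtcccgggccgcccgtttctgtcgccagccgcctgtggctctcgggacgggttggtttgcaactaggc
Mdm2, chr10:117710709-117711008, minus strand: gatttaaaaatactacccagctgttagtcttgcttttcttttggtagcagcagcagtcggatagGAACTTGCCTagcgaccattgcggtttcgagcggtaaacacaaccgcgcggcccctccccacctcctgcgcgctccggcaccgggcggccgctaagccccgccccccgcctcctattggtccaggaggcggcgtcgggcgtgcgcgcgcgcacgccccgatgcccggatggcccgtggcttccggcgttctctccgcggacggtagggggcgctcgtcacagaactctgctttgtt
Topbp1, chr9:103305077-103305376, plus strand: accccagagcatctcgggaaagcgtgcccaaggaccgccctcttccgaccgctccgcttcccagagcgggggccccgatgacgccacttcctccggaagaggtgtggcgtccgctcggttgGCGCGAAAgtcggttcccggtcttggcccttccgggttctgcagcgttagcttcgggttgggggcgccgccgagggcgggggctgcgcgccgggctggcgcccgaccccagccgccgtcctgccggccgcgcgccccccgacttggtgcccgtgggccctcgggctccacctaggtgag
Xrcc6, chr15:82016119-82016418, plus strand: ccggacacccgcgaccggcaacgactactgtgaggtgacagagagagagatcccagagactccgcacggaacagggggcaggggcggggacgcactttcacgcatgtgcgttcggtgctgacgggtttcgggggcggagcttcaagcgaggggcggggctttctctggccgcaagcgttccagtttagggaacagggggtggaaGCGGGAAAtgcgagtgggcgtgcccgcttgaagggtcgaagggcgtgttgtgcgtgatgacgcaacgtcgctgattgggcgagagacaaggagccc
A p53 half-site stood in a window of 5 of the 11 p53 targets (Bax, Aen, Sesn1, Mdm2 and Ccng1) and of 0 of the 16 break response genes. Counted by window, 6 of the 16 windows of p53 targets held one, against 8.36% of all 32851 RefSeq mouse promoter windows of this length. An E2F-type word stood in a window of 5 of the 16 break response genes (Chek2, Brca2, Topbp1, Xrcc6 and Mdc1) and of 0 of the 11 p53 targets. Counted by window, 5 of the 17 windows of break response genes held one, against 1.84% of all windows. A pair of p53 half-sites within 13 bases of each other, the form of a full site, was in 0 windows of either list and in 0.0731% of all windows. These are matches of letters, and windows of 1 gene can overlap, as those of Aen do.

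The 12 libraries held 15495915 to 22670899 read counts. SSC KO replicate 2 stood apart: it had a read in 13987 genes, against 20965 to 23831 genes in the other 11 libraries. Replicates differed by a median of 1.30 log2 in SSC KO, 0.67 in pBCSP KO and 0.63 in BCSP KO, against 0.44, 0.40 and 0.35 log2 in SSC, pBCSP and BCSP WT. Paxip1, the deleted gene, ranged over 0 to 3.48 CPM (counts scaled to library size) in the 6 KO libraries and 7.25 to 14.6 CPM in the 6 WT libraries, with no overlap. It fell by 4.52 ± 0.76 log2 (SE) on average over the populations (adjusted p = 0.0396, edgeR quasi-likelihood test with Benjamini-Hochberg adjustment over all genes). That call held when either SSC KO library or BCSP KO replicate 1 was left out, and was lost without any one of the other 9 libraries, with adjusted p of 0.0714 to 0.194. Chondrocyte markers summed to 35570 to 61860 CPM in KO libraries and 25610 to 70740 CPM in WT libraries. All 5 were detected in every library. Of the 5, edgeR called 2 higher in KO cells, Matn1 (3.00 ± 0.33 log2, adjusted p = 0.0244) and Col9a1 (1.16 ± 0.21 log2, adjusted p = 0.0484), and the list median was 1.14 log2, while Col2a1 had -0.07 ± 0.24 log2. Of 7 skeletal progenitor markers tested, 0 were called and 7 had a negative difference, with a median of -0.63 log2 and an unadjusted p under 0.05 for 2. The part of these markers in the differences described here was not tested. The 5 leukocyte markers summed to 2.90 to 24.5 CPM in KO libraries and 1.13 to 6.72 CPM in WT libraries, and the 5 endothelial markers to 0 to 16.3 CPM in KO libraries and 4.09 to 34.0 CPM in WT libraries. Ptprc, the pan-leukocyte marker CD45, stood at 0 to 0.426 CPM in KO and 0 to 0.578 CPM in WT libraries. Erythroid markers summed to 1.1 to 27.6 CPM in KO and 20.1 to 222.4 CPM in WT libraries. Fewer cells of a type and less RNA per cell cannot be told apart in such bulk libraries.

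Averaged over the 3 populations, none of the 38 genes changed past the threshold in KO cells. All 38 passed the filter on low counts, and 0 had an adjusted p under 0.05 in edgeR, where 1.17% of the 17494 genes tested did (205 genes, 169 higher and 36 lower). At an unadjusted p under 0.05 stood 6 of the 38, which is 4 of 22 break response genes and 2 of 16 p53 targets, beside 19.6% of all genes tested. The 6 were Trp53bp1, Xrcc6 and Xrcc5 with positive differences and Topbp1 with a negative one among break response genes, and Ccng1 with a positive and Sesn1 with a negative one among p53 targets. DESeq2 called Topbp1 and Ccng1 among the 38, with 1693 of all genes. Without SSC KO replicate 1, so that the library with the fewest detected genes stood alone for SSC KO, edgeR called 20 of the 38 and 6147 of all genes. Without SSC KO replicate 2 it called 0 of the 38 and 246 of all genes, with pBCSP KO replicate 1 left out 0 and 29, with BCSP KO replicate 1 left out 0 and 349, and with any one of the other 8 libraries left out 0 and 0.

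The 2 lists had medians on either side of that of all genes. The break response median was 0.20 log2 and the p53 target median -0.20 log2, against -0.09 log2 over all genes tested. The difference was above 0 in 13 of 22 break response genes and in 5 of 16 p53 targets. The SD of the list median over the 6 KO libraries, each set against the WT mean of its population, was 0.351 log2 for break response genes and 1.01 log2 for p53 targets. The p53 target median was 0.11 log2 without SSC KO replicate 2, -0.47 and -0.04 with replicate 1 or 2 of pBCSP KO left out, -0.32 and -0.11 with replicate 1 or 2 of BCSP KO left out, and it reached -0.89 without SSC KO replicate 1, so its sign rested on single libraries. The break response median was near 0 without SSC KO replicate 1 (-0.0048 log2), and 0.04, 0.07 and 0.09 log2 without pBCSP KO replicate 2, pBCSP WT replicate 2 and BCSP WT replicate 2. Every KO library lay above the WT mean of its population for 3 of the 38 genes, Xrcc5, Xrcc6 and Rnf168, where 10.1% of all genes did. Every KO library lay below it for 4 of the 38, Nbn, Topbp1, Rnf8 and Sesn1, where 13.3% of all genes did.

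**Figure D1:**
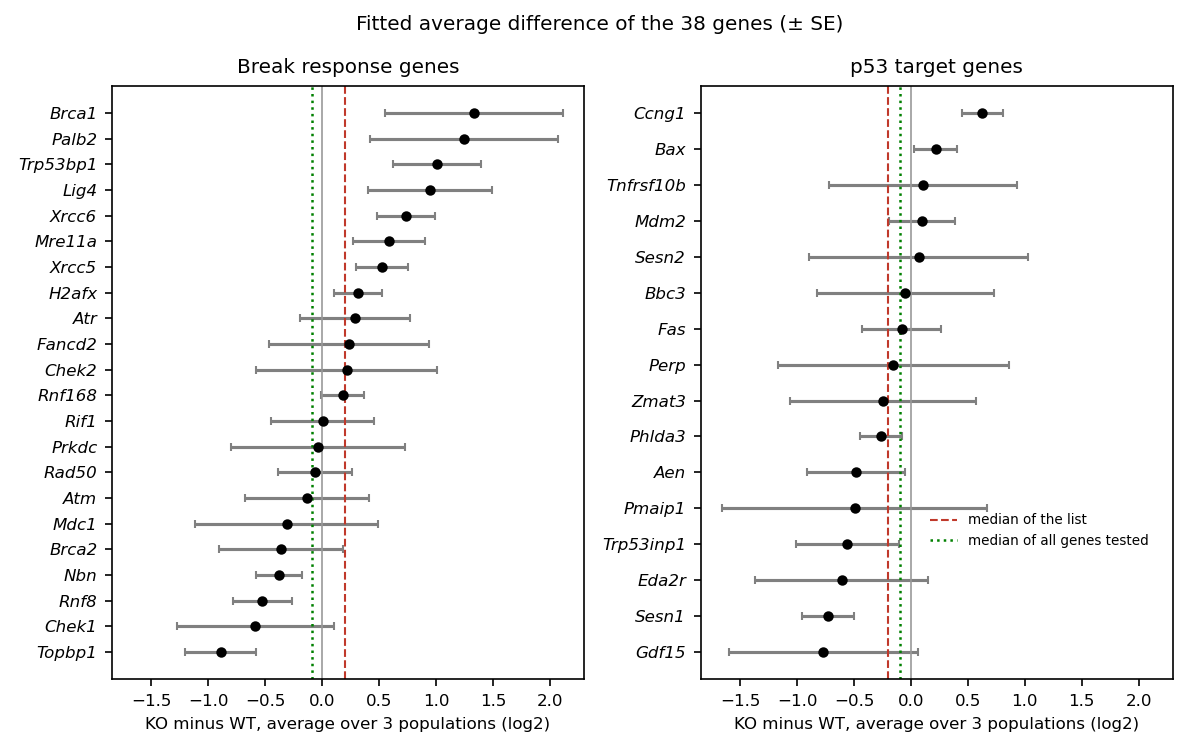
Fitted KO minus WT difference, averaged over SSC, pBCSP and BCSP, in log2 on the horizontal axis for each of the 22 break response genes (left) and 16 p53 targets (right). Points are estimates, bars are SE, the dashed line is the list median (0.20 and -0.20) and the dotted line the median of all genes tested (-0.09). Brca1 and Palb2 have the highest estimates and wide bars, while Ccng1, Xrcc6, Topbp1 and Sesn1 have narrower bars. A bar clear of 0 is not a call, and no gene shown had an adjusted p under 0.05.

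The 53BP1 branch, where PTIP acts, was measured through 6 genes. KO levels of Trp53bp1 were 11.4 and 61.1 (SSC), 14.2 and 28.1 (pBCSP) and 14.1 and 15.3 CPM (BCSP). WT levels of Trp53bp1 were 10.2 and 12.8 (SSC), 11.1 and 12.6 (pBCSP) and 10.7 and 9.61 CPM (BCSP). Both KO libraries of pBCSP and of BCSP lay above their WT libraries, while SSC KO replicate 1 fell between the SSC WT libraries and SSC KO replicate 2 was the highest of all 12. The average difference of Trp53bp1, which encodes 53BP1, was 1.01 ± 0.39 log2 (adjusted p = 0.200, above the mean of WT in 5 of 6 KO libraries). It was 0.45 log2 without SSC KO replicate 2 (adjusted p = 0.298) and 1.27 log2 without SSC KO replicate 1 (adjusted p = 0.0037).

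In KO libraries, Rif1 stood at 7.28 and 1.66 (SSC), 5.11 and 16.6 (pBCSP) and 10.4 and 7.79 CPM (BCSP). In WT libraries, Rif1 stood at 5.47 and 9.25 (SSC), 8.05 and 9.78 (pBCSP) and 7.2 and 6.12 CPM (BCSP). KO and WT overlapped in SSC and pBCSP, with SSC KO replicate 2 the lowest and pBCSP KO replicate 2 the highest library, and the average difference of Rif1, the end-protection partner of 53BP1, was 0.00 ± 0.45 log2. Mdc1 in KO libraries measured 9.84 and 0 (SSC), 9.4 and 9.68 (pBCSP) and 13.2 and 9.13 CPM (BCSP). Mdc1 in WT libraries measured 8.64 and 11 (SSC), 7.3 and 10.4 (pBCSP) and 14.9 and 8.15 CPM (BCSP). Apart from the library at 0, where a count of 0 allows up to 0.166 CPM, KO and WT overlapped in each population. The average difference of Mdc1, the adaptor that reads phosphorylated H2AX, was -0.31 ± 0.81 log2, with 0.02 log2 without SSC KO replicate 2 and -3.47 log2 without SSC KO replicate 1 (adjusted p = 0.00108).

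H2afx, the gene of the histone variant H2AX that is phosphorylated beside breaks, ranged over 36.5 to 95.7 CPM in KO and 45 to 56.5 CPM in WT libraries, with a difference of 0.31 ± 0.21 log2. The ubiquitin ligase genes RNF8 and RNF168, which act in sequence to recruit 53BP1, lay on opposite sides of 0. Rnf8 lay under the WT mean in 6 of 6 KO libraries (-0.53 ± 0.26 log2, adjusted p = 0.297), and Rnf168 was above it in 6 of 6 (0.18 ± 0.19 log2, adjusted p = 0.624). Neither passed the threshold.

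Among the kinases and their activators, the lowest estimate was that of Topbp1, whose protein has BRCT domains like PTIP and activates ATR. KO levels of Topbp1 were 5.34 and 3.99 (SSC), 5.3 and 6.24 (pBCSP) and 12.4 and 5.54 CPM (BCSP). WT levels of Topbp1 were 6.57 and 12.8 (SSC), 11.1 and 13.3 (pBCSP) and 12.6 and 13.6 CPM (BCSP). In every population both KO libraries lay below both WT libraries. In BCSP, KO replicate 1 came close to the WT values. The average difference was -0.89 ± 0.31 log2 (adjusted p = 0.170, below the mean of WT in 6 of 6 KO libraries), and -0.83 log2 without SSC KO replicate 2 (adjusted p = 0.171).

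In KO libraries, Atm stood at 2.77 and 2.77 (SSC), 1.07 and 8.18 (pBCSP) and 1.26 and 4.14 CPM (BCSP). In WT libraries, Atm stood at 3.17 and 3.7 (SSC), 2.98 and 5.29 (pBCSP) and 3.8 and 2.7 CPM (BCSP). Atm, the kinase gene first in line at double-strand breaks, had its lowest 2 levels in KO replicates 1 of pBCSP and BCSP and its highest in pBCSP KO replicate 2. The average difference was -0.14 ± 0.54 log2, and it was -1.20 log2 with the 3 second KO libraries left out together (adjusted p = 0.0949). Atr, the kinase gene for stalled forks and resected ends, ranged over 1.25 to 7.93 CPM in KO and 2.36 to 5.51 CPM in WT libraries (0.29 ± 0.48 log2). Chek1 in KO libraries measured 1.32 and 0 (SSC), 3.15 and 6.15 (pBCSP) and 4.53 and 5.42 CPM (BCSP). Chek1 in WT libraries measured 2.65 and 2.63 (SSC), 4.27 and 4.0 (pBCSP) and 5.57 and 3.82 CPM (BCSP). Both SSC KO libraries of Chek1, the kinase gene downstream of ATR, lay below SSC WT, one of them at 0, and the other populations overlapped (-0.59 ± 0.69 log2). Chek2, downstream of ATM, ranged over 0 to 4.22 CPM in KO and 1.46 to 4.09 CPM in WT libraries (0.21 ± 0.79 log2). Without SSC KO replicate 1, Chek1 had -2.78 log2 (adjusted p = 0.00449) and Chek2 -2.27 log2 (adjusted p = 0.0223), with SSC KO replicate 2, where both are at 0, standing alone for SSC KO.

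The 3 genes of the MRE11-RAD50-NBS1 complex, which binds broken ends and activates ATM, did not move together. Nbn lay below WT in each population with no overlap within it (11.8 to 28.4 CPM in KO, 24.1 to 30.9 CPM in WT libraries, -0.38 ± 0.20 log2, adjusted p = 0.328). Mre11a had an estimate of 0.59 ± 0.31 log2 (adjusted p = 0.330), with 9.91 to 25.3 CPM in KO and 9.55 to 13.1 CPM in WT libraries. Rad50 was below WT in KO replicates 1 (13.1, 13.2 and 14.1 CPM in SSC, pBCSP and BCSP) and above WT in KO replicates 2 (33.2, 35.9 and 27.3 CPM), each against WT of its own population, where levels were 20.3 to 27.4 CPM. Its average difference was -0.06 ± 0.33 log2.

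The Ku genes Xrcc6 (Ku70) and Xrcc5 (Ku80), whose proteins form the ring that captures ends for non-homologous end joining, both had positive estimates in all 3 populations. KO levels of Xrcc6 were 31.4 and 56.4 (SSC), 34.2 and 49.4 (pBCSP) and 37 and 53.1 CPM (BCSP). WT levels of Xrcc6 were 36.2 and 17.9 (SSC), 28.9 and 20.7 (pBCSP) and 27.6 and 25.3 CPM (BCSP). The groups did not overlap in pBCSP and BCSP, and in SSC the WT replicate 1 value lay between the KO values. Xrcc6 lay over the WT mean in 6 of 6 KO libraries (0.74 ± 0.26 log2, adjusted p = 0.164), and its estimate was 0.57 log2 without SSC KO replicate 2. In KO libraries, Xrcc5 stood at 32.3 and 32.2 (SSC), 32.3 and 18.9 (pBCSP) and 32.9 and 22.4 CPM (BCSP). In WT libraries, Xrcc5 stood at 26.7 and 17.9 (SSC), 20.9 and 16 (pBCSP) and 20.9 and 16.5 CPM (BCSP). KO lay above WT in SSC and BCSP, and pBCSP KO replicate 2 fell between the WT values. Xrcc5 was likewise above the WT mean in 6 of 6 (0.52 ± 0.23 log2, adjusted p = 0.248). Between KO libraries, Xrcc6 was higher and Xrcc5 lower in replicate 2 than in replicate 1 of each population. Lig4, the end-joining ligase gene, ranged over 1.32 to 14.9 CPM in KO and 1.04 to 2.59 CPM in WT libraries (0.95 ± 0.55 log2), with the highest value in SSC KO replicate 2. Prkdc, the gene of the kinase that Ku recruits, ranged over 0 to 8.73 CPM in KO and 1.78 to 4.68 CPM in WT libraries (-0.04 ± 0.76 log2, and -2.42 log2 with adjusted p = 0.0395 without SSC KO replicate 1). Reads of Xrcc6 shared with near-identical copies elsewhere could have been split or dropped by the authors' counting, whose treatment of shared reads was not given in the sources used here.

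Genes of homologous recombination were low in CPM and had wide errors. Brca1 in KO libraries measured 0.208 and 17.9 (SSC), 1.07 and 1.04 (pBCSP) and 1.79 and 3.41 CPM (BCSP). Brca1 in WT libraries measured 0.692 and 1.25 (SSC), 1.07 and 1.19 (pBCSP) and 1.48 and 1.35 CPM (BCSP). The level in SSC KO replicate 2 was far above the next one, 3.41 CPM in BCSP KO replicate 2. The average difference of Brca1, the gene whose protein opposes 53BP1 at broken ends, was 1.33 ± 0.78 log2 (adjusted p = 0.377) and turned to -0.47 log2 (adjusted p = 0.559) without that library. Palb2, the link between BRCA1 and BRCA2, followed the same layout, with 10.9 CPM in SSC KO replicate 2, 0.126 to 2.89 CPM in the other KO libraries and 0.401 to 1.73 CPM in WT libraries (1.25 ± 0.83 log2). Brca2, a gene of homologous recombination, was at 0.499 CPM in SSC KO replicate 2, 3.09 to 9.59 CPM in the other KO libraries and 4.41 to 8.95 CPM in WT libraries (-0.36 ± 0.55 log2, and -1.25 log2 with adjusted p = 0.0234 without SSC KO replicate 1). KO levels of Fancd2 were 1.18 and 0.0554 (SSC), 0.82 and 1.81 (pBCSP) and 1.74 and 1.58 CPM (BCSP). WT levels of Fancd2 were 1.5 and 1.13 (SSC), 0.979 and 0.216 (pBCSP) and 0.887 and 1.18 CPM (BCSP). Fancd2, a gene of the crosslink repair pathway, was above WT in both BCSP KO libraries and overlapped in the other populations (0.23 ± 0.70 log2).

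**Figure D2:**
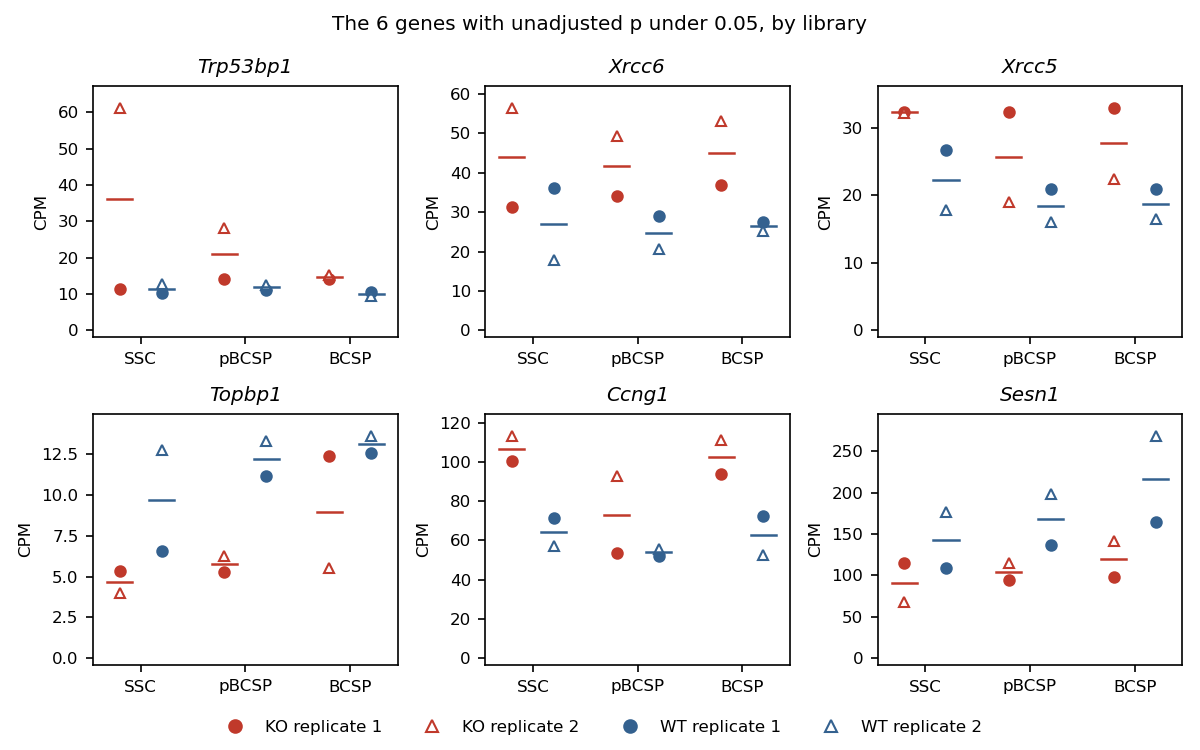
CPM on the vertical axis in each of the 12 libraries for the 6 genes with an unadjusted p under 0.05 in the average comparison, KO left of WT within each population. Circles are replicate 1, triangles replicate 2 and bars the mean of a group of 2. Topbp1 is lower in both KO libraries than in both WT libraries of every population, while the high Trp53bp1 mean of SSC KO comes from replicate 2 at 61.1 CPM.

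Among the p53 targets, the smallest p belonged to Ccng1, which encodes cyclin G1, a regulator of p53 through MDM2. In KO libraries, Ccng1 stood at 100.3 and 113 (SSC), 53.8 and 92.6 (pBCSP) and 93.7 and 111 CPM (BCSP). In WT libraries, Ccng1 stood at 71.6 and 57.1 (SSC), 52 and 55.9 (pBCSP) and 72.7 and 52.4 CPM (BCSP). In SSC and BCSP both KO libraries lay above both WT libraries, and in pBCSP only replicate 2 did. The average difference was 0.63 ± 0.18 log2 (1.54-fold, adjusted p = 0.118, above the mean of WT in 5 of 6 KO libraries), and 0.59 log2 without SSC KO replicate 2 (adjusted p = 0.144). Its promoter window is the one printed with the half-site GGGCAAGCCT.

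Sesn1, whose protein sestrin 1 restrains growth signalling under stress, pointed the other way. Sesn1 in KO libraries measured 114 and 67.9 (SSC), 94.1 and 115 (pBCSP) and 98.2 and 142 CPM (BCSP). Sesn1 in WT libraries measured 108 and 176 (SSC), 137 and 198 (pBCSP) and 165 and 268 CPM (BCSP). KO and WT did not overlap in pBCSP and BCSP, and in SSC the KO replicate 1 value lay between the WT values. The average difference was -0.73 ± 0.23 log2 (adjusted p = 0.143, below the mean of WT in 6 of 6 KO libraries). KO levels of Sesn2 were 83.8 and 0 (SSC), 102 and 14.4 (pBCSP) and 69.3 and 34.5 CPM (BCSP). WT levels of Sesn2 were 54.5 and 47.6 (SSC), 43 and 41.8 (pBCSP) and 48.2 and 53.1 CPM (BCSP). Sesn2, the paralogous sestrin gene, was above WT in all 3 first KO libraries and below WT in all 3 second ones, and its average difference was 0.07 ± 0.96 log2, and -4.12 log2 without SSC KO replicate 1 (adjusted p = 0.00568).

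In KO libraries, Mdm2 stood at 207 and 124 (SSC), 182 and 57.1 (pBCSP) and 146 and 80 CPM (BCSP). In WT libraries, Mdm2 stood at 125 and 125 (SSC), 127 and 143 (pBCSP) and 117 and 101 CPM (BCSP). Mdm2, the gene of the ligase that degrades p53, was higher than every WT library in each first KO library, while the second KO libraries of pBCSP and BCSP were below every WT library (0.09 ± 0.29 log2). Bax in KO libraries measured 48.9 and 59.5 (SSC), 57 and 70.7 (pBCSP) and 53.4 and 90.7 CPM (BCSP). Bax in WT libraries measured 57.5 and 47.8 (SSC), 65.6 and 46.3 (pBCSP) and 52.8 and 55.3 CPM (BCSP). The values of Bax, which opens the mitochondrial membrane in cell death, overlapped in each population (0.22 ± 0.19 log2). KO levels of Phlda3 were 59 and 81.8 (SSC), 65.4 and 61.6 (pBCSP) and 47.1 and 72.8 CPM (BCSP). WT levels of Phlda3 were 56.9 and 67.8 (SSC), 68.9 and 79 (pBCSP) and 79.6 and 122 CPM (BCSP). Phlda3, an inhibitor of AKT, was lower than WT in both KO libraries of pBCSP and BCSP and overlapped in SSC (-0.26 ± 0.18 log2, adjusted p = 0.458).

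In KO libraries, Trp53inp1 stood at 3.95 and 17.5 (SSC), 1.51 and 2.26 (pBCSP) and 4.43 and 6.02 CPM (BCSP). In WT libraries, Trp53inp1 stood at 4.72 and 9.25 (SSC), 4.0 and 10.4 (pBCSP) and 5.67 and 7.81 CPM (BCSP). Trp53inp1, a stress gene that promotes p53-dependent death and autophagy, was below WT in both pBCSP KO libraries and overlapped elsewhere (-0.56 ± 0.45 log2). Perp in KO libraries measured 57.2 and 0 (SSC), 29.6 and 2.08 (pBCSP) and 25.4 and 10.9 CPM (BCSP). Perp in WT libraries measured 32.3 and 29.7 (SSC), 15.6 and 25 (pBCSP) and 18.3 and 17.6 CPM (BCSP). Perp, a membrane protein of desmosomes and cell death, was highest in KO replicate 1 and lowest in KO replicate 2 of every population (-0.16 ± 1.02 log2, and -4.16 log2 with adjusted p = 0.0125 without SSC KO replicate 1). KO levels of Pmaip1 were 5.2 and 0 (SSC), 6.18 and 0 (pBCSP) and 23.4 and 2.19 CPM (BCSP). WT levels of Pmaip1 were 6.34 and 3.28 (SSC), 7.92 and 3.73 (pBCSP) and 11.2 and 9.05 CPM (BCSP). Pmaip1, which encodes the BH3-only protein NOXA, was lowest in KO replicate 2 of each population (-0.49 ± 1.17 log2), and the 0 in pBCSP KO replicate 2 allows up to 0.136 CPM.

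The remaining targets had estimates from -0.77 to 0.11 log2, none past the threshold. Gdf15, a secreted stress factor, had -0.77 ± 0.83 log2 with 0 to 5.64 CPM in KO and 3.4 to 6.63 CPM in WT libraries. Eda2r, a receptor of the TNF receptor family, had -0.61 ± 0.76 log2, and Aen, a nuclease gene of apoptosis, -0.48 ± 0.43 log2. Zmat3, an RNA-binding regulator, had -0.25 ± 0.82 log2, Fas, a death receptor gene, -0.08 ± 0.35 log2, Bbc3, which encodes the BH3-only protein PUMA, -0.05 ± 0.78 log2, and Tnfrsf10b, the receptor gene for TRAIL, 0.11 ± 0.83 log2. Without SSC KO replicate 1, where SSC KO is the library with these 4 genes at 0, the values were -3.15 log2 for Tnfrsf10b (adjusted p = 0.00327), -3.38 for Zmat3 (0.00133), -2.85 for Eda2r (0.00628) and -3.47 for Gdf15 (0.00597). Trp53 itself, which encodes p53 and is largely controlled as protein, had 47.1 to 81.1 CPM in KO and 50.1 to 72.1 CPM in WT libraries (-0.04 ± 0.17 log2, adjusted p = 0.916). Cdkn1a, the cell cycle inhibitor p21, had 1124, 1043 and 633.4 CPM in the first KO libraries of SSC, pBCSP and BCSP, 231.4, 61.99 and 240.8 CPM in the second ones, and 636.6 to 923.3 CPM in WT libraries (-0.56 ± 0.60 log2, adjusted p = 0.632).

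The 16 p53 targets separated the first KO library (replicate 1) from the second (replicate 2) in each population. In each first KO library most targets were above the WT mean: 12, 10 and 11 of 16 in SSC, pBCSP and BCSP. In each second KO library few were: 4, 2 and 4 of 16. Of the 17494 genes tested, 8211, 8409 and 8725 were above it in the first KO libraries, and 6279, 8403 and 8324 in the second ones. The list median against the WT mean was 0.32, 0.12 and 0.20 log2 in the first and -2.27, -1.15 and -0.45 log2 in the second KO libraries of SSC, pBCSP and BCSP. In SSC KO replicate 2, 7 of the 16 were at 0, beside 27.9% of all genes tested, and with these at the limit of 3 counts the median there was -1.87 log2. The median of all 17494 genes tested was -0.04, -0.03 and -0.0014 log2 in the first and -0.68, -0.04 and -0.06 log2 in the second KO libraries. A wider list of 33 other genes of the p53 pathway showed the split in SSC, with a median of -1.51 log2 in the second and -0.05 log2 in the first KO library. It was not seen in the medians of that list in pBCSP (-0.09 log2 in the second and 0.02 log2 in the first) and in BCSP (-0.01 log2 in the second and -0.23 log2 in the first). The summed levels of that list did differ, with 1176, 836.2 and 1491 CPM in the second KO libraries of SSC, pBCSP and BCSP. The first ones had 3008, 2720 and 2293 CPM, and WT libraries 2300 to 3133 CPM. Such sums are led by genes with high CPM, Cdkn1a among them. With the second KO libraries alone, edgeR called 26 of the 38 genes and 9529 of all genes, and with the first alone 2 and 661, each lone KO library being assumed to vary like the WT groups.

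Bbc3, Sesn2, Perp, Pmaip1 and Aen were lower by more than 1 log2 in the second than in the first KO library of all 3 populations. These are 5 of 38 genes, all p53 targets, beside 8.49% of all genes. Bbc3 had 5.16, 2.98 and 6.63 CPM in the second KO libraries of SSC, pBCSP and BCSP, against 54.1, 72.8 and 40 CPM in the first ones and 17 to 54.8 CPM in WT libraries. Aen had 11.5, 8.0 and 11.6 CPM in the second KO libraries, against 45.4, 32.3 and 29.6 CPM in the first ones and 28.4 to 39.1 CPM in WT libraries. None of the 38 was higher by more than 1 log2 in all 3 second KO libraries, where 2.24% of all genes were. Between WT replicates, 0 of the 38 differed by more than 1 log2 in 1 direction in all 3 populations, beside 1.39% of all genes lower and 0.44% higher in replicate 2. Bax, Ccng1 and Trp53inp1 went against the majority of targets, with a higher level in the second KO library of every population.

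Break response genes did not share this layout. Their list median against the WT mean was -0.15, -0.10 and 0.29 log2 in the first and -0.36, 0.51 and 0.41 log2 in the second KO libraries of SSC, pBCSP and BCSP. Of 22 genes, 7 were higher in the second than in the first KO library of all 3 populations (Trp53bp1, Atr, Palb2, Rad50, Mre11a, Xrcc6 and Lig4) and 1, Xrcc5, was lower. The shares of all genes in these orders were not counted, so whether 7 of 22 is unusual cannot be read here. In SSC KO replicate 2, 4 of the 22 were at 0, a smaller share than among all genes tested.

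Immediate early genes, which respond within minutes to cell stimulation and handling, were also lower in the second than in the first KO libraries. Their median against the WT mean was -2.75, -4.28 and -1.68 log2 in the second KO libraries of SSC, pBCSP and BCSP. It was thus lowest in pBCSP, while the p53 target median was lowest in SSC. The 10 on a fixed list (Fos, Fosb, Jun, Junb, Egr1, Atf3, Ier2, Nr4a1, Dusp1 and Zfp36), all detected in every library, summed to 2940, 1094 and 4352 CPM in the second KO libraries of SSC, pBCSP and BCSP. They summed to 18210, 17740 and 14430 CPM in the first KO libraries and to 13500 to 18730 CPM in WT libraries. Osteoblast markers summed to 1797, 8431 and 8663 CPM in the second and 7232, 18540 and 19250 CPM in the first KO libraries of SSC, pBCSP and BCSP, against 11920 to 40110 CPM in WT libraries. Col1a1 made up most of each sum, with 1470, 8389 and 8481 CPM in the second and 6816, 18480 and 18080 CPM in the first KO libraries. Of the 5 osteoblast markers, Runx2 had a positive average KO minus WT difference (0.69 ± 0.27 log2) and the other 4 a negative one. G2 and M phase genes summed to 170.5, 331.5 and 732.9 CPM in the second and 439.5, 553.5 and 709.6 CPM in the first KO libraries, against 558.0 to 780.6 CPM in WT libraries. S phase genes had no common direction, with 863.2, 638.4 and 1178 CPM in the second and 814.6, 882.4 and 1098 CPM in the first KO libraries. Endothelial markers summed to 0, 0.723 and 2.37 CPM in the second and 4.44, 16.3 and 7.33 CPM in the first KO libraries, and 5 skeletal muscle markers to 42.7, 29.8 and 50.3 CPM in the second and 81.4, 73.8 and 380.5 CPM in the first ones, against 28.7 to 521.8 CPM in WT libraries. Leukocyte markers went the other way, with 24.5, 9.68 and 10.5 CPM in the second and 4.09, 3.91 and 2.90 CPM in the first KO libraries, most of it from Laptm5 in the second ones. The part of these genes in the split of the p53 targets was not tested.

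**Figure D3:**
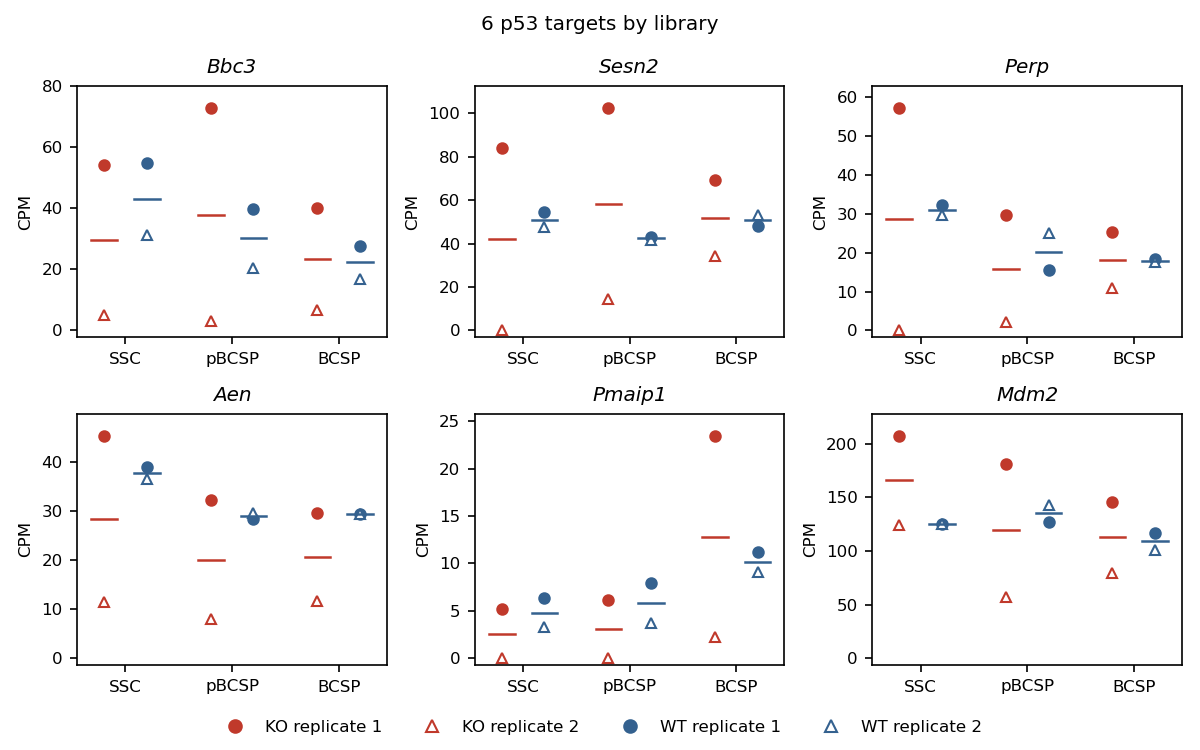
CPM on the vertical axis in each of the 12 libraries for 6 p53 targets, KO left of WT within each population, circles for replicate 1, triangles for replicate 2 and bars for the mean of a group of 2. For all 6 genes the KO triangle lies below the KO circle in every population, and for Bbc3, Sesn2, Perp, Aen and Pmaip1 it is the lowest of the 4 values in every population.

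**Figure D4:**
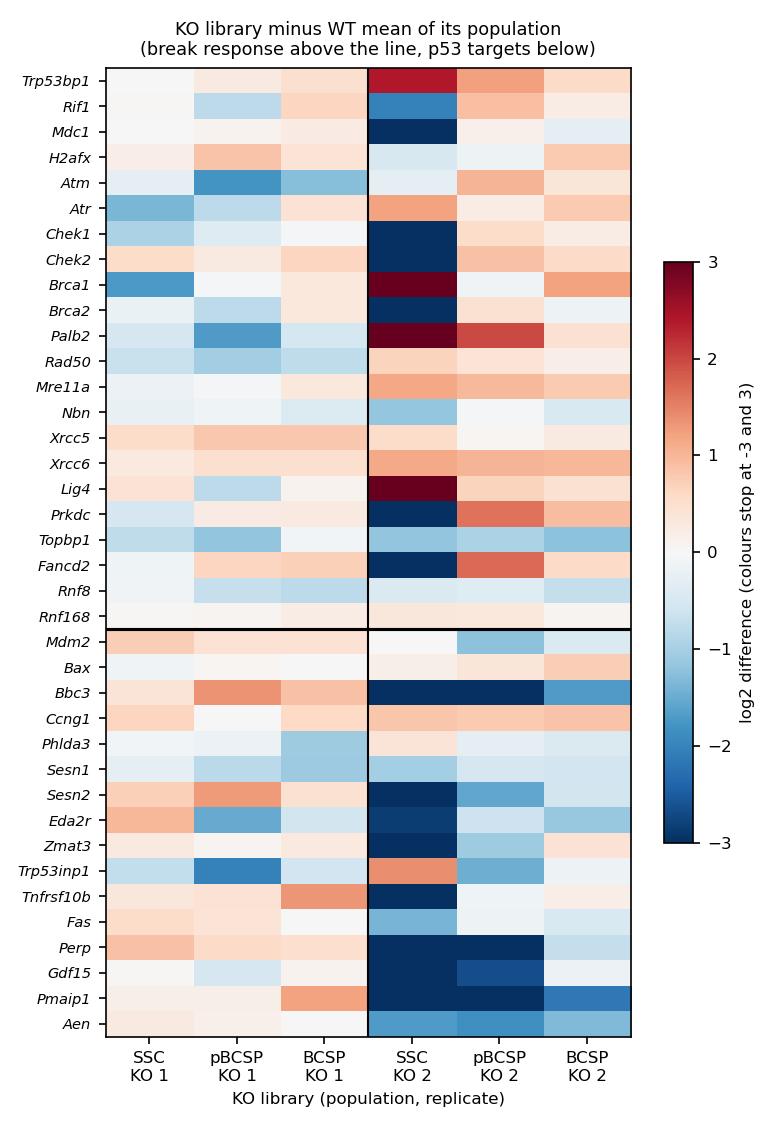
Difference of each KO library from the WT mean of its population in log2 (colour, red higher and blue lower, colours stop at -3 and 3) for the 38 genes in rows, break response above the line and p53 targets below, and the 6 KO libraries in columns, replicate 1 left and replicate 2 right. Blue gathers among the p53 targets in the replicate 2 columns, while Topbp1 and Rnf8 are blue or near white and Xrcc5, Xrcc6 and Rnf168 red or near white in all 6.

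**Figure D5:**
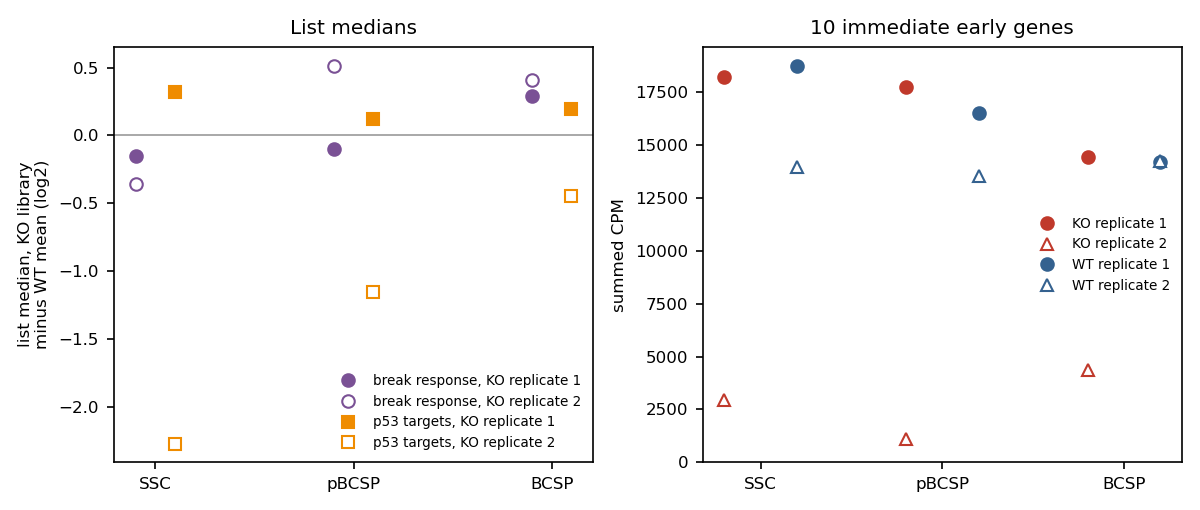
Left, median log2 difference from the WT mean of 22 break response genes (circles) and 16 p53 targets (squares) in each KO library, filled for replicate 1 and open for replicate 2. Right, summed CPM of 10 immediate early genes in each library, KO left of WT within a population. The p53 target medians are above 0 in all 3 first KO libraries and below 0 in all 3 second ones, where the immediate early sum is 1094 to 4352 CPM.

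Taken population by population, no member passed the threshold in edgeR, and neither did any of the 17494 genes tested (0% in SSC, 0% in pBCSP and 0% in BCSP). At an unadjusted p under 0.05 were 3 of the 38 in SSC, 1 in pBCSP and 2 in BCSP, with 1643, 1096 and 1095 of all genes. DESeq2 called 0 of the 38 in each population, with 174, 99 and 123 of all genes in SSC, pBCSP and BCSP. In SSC the smallest p belonged to Lig4 (2.41 ± 0.98 log2, unadjusted p = 0.0358, adjusted p = 0.524) and Trp53bp1 (1.66 ± 0.68 log2, adjusted p = 0.524) of the break response. Among p53 targets they belonged to Ccng1 (0.73 ± 0.31 log2, adjusted p = 0.524) and Sesn1 (-0.64 ± 0.40 log2, adjusted p = 0.595). In pBCSP they were Topbp1 (-1.08 ± 0.55 log2, adjusted p = 0.795), Xrcc6 (0.75 ± 0.44 log2, adjusted p = 0.830), Trp53inp1 (-1.93 ± 0.82 log2, adjusted p = 0.780) and Sesn1 (-0.68 ± 0.40 log2, adjusted p = 0.829). In BCSP they were Xrcc6 (0.77 ± 0.44 log2, adjusted p = 0.848), Rnf8 (-0.77 ± 0.45 log2, adjusted p = 0.848), Phlda3 (-0.75 ± 0.32 log2, adjusted p = 0.785) and Ccng1 (0.71 ± 0.31 log2, adjusted p = 0.795).

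The groups of 2 KO and 2 WT libraries did not overlap for some of the genes, and the share of the 38 was above that of all genes in 1 of 6 counts, the genes with higher KO levels in BCSP. In SSC both KO libraries lay above both WT libraries for 2 of the 38 (Xrcc5 and Ccng1), beside 13.7% of all genes, and below them for 5 (Atm, Chek1, Nbn, Prkdc and Topbp1), beside 25.8%. In pBCSP they lay above for 3 (Trp53bp1, Xrcc6 and Rnf168), beside 21.2%, and below for 8, beside 24%. Of these 8, Nbn, Topbp1 and Rnf8 are break response genes, and Phlda3, Sesn1, Eda2r, Trp53inp1 and Gdf15 are p53 targets. In BCSP they lay above for 11 of the 38 (28.9%), beside 24.2%, and below for 6, beside 26.4%. The 11 held 9 of the 22 break response genes (Trp53bp1, Rif1, H2afx, Atr, Brca1, Mre11a, Xrcc5, Xrcc6 and Fancd2) and 2 of the 16 p53 targets (Ccng1 and Zmat3), and the 6 were Nbn, Topbp1, Rnf8, Phlda3, Sesn1 and Eda2r.

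Whether the KO effect differed between populations was tested by an F test in edgeR, which called 0 of the 38 and 0% of all genes, and 0 of the 38 and 240 of all genes had an unadjusted p under 0.05. DESeq2 called 3 of all genes and 0 of the 38. The smallest p were those of Trp53inp1 (unadjusted p = 0.128) and Phlda3 (0.176) among p53 targets and of Lig4 (0.22) and Brca1 (0.263) among break response genes, each with an adjusted p of 1.

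No difference between WT populations passed the test for these genes. Between WT pBCSP and WT SSC edgeR called 0 of the 38 and 0% of all genes, between WT BCSP and WT pBCSP again 0 of the 38 and 0%, and 0 of the 38 had an unadjusted p under 0.05 in either, with 330 and 458 of all genes. DESeq2 called 38 and 29 of all genes in these comparisons and 0 of the 38 members. Eda2r had 1.96 and 1.68 CPM in WT pBCSP and 5.08 and 4.27 CPM in WT BCSP, against 0.692 and 0.657 CPM in WT SSC, and the groups did not overlap. The difference was 1.42 ± 1.33 log2 for pBCSP minus SSC and 1.36 ± 1.30 log2 for BCSP minus pBCSP (adjusted p = 1 for both). For pBCSP minus SSC the other lowest p were those of Rnf8 (0.59 ± 0.45 log2), Fancd2 (-1.12 ± 1.23 log2) and Ccng1 (-0.26 ± 0.31 log2). For BCSP minus pBCSP they were those of Phlda3 (0.45 ± 0.32 log2), Atr (-1.01 ± 0.84 log2) and Palb2 (1.26 ± 1.44 log2).

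Wider lists of the same pathways gave 1 call. Of 59 further genes of break repair tested, edgeR called 0 and 4 had an unadjusted p under 0.05 (Poll, Parp1, Parp2 and Lig1, all with positive differences), with a median of 0.17 log2 and 36 of 59 above 0, where 19.6% of all genes had such a p and 44.7% were above 0. Of 33 further genes of the p53 pathway 1 was called, 5 had an unadjusted p under 0.05, and the median was -0.23 log2 with 10 of 33 above 0. The shares at an unadjusted p under 0.05, 6.78% of the 59 and 15.2% of the 33, lay below that of all genes. The call was Mgmt, which encodes the enzyme that removes alkyl groups from guanine. Mgmt had 10.3 to 21.2 CPM in the 6 KO libraries and 1.25 to 8.28 CPM in the 6 WT libraries, and every KO library lay above every WT library. That layout was found in 3.08% of all genes tested. Mgmt rose by 1.84 ± 0.35 log2 (3.58-fold, adjusted p = 0.0490). That call was lost with the replicate number as a block (adjusted p = 0.0600) and with counts summed over populations (adjusted p = 0.591). The adjusted p was 0.0395 without SSC KO replicate 2 and 0.0037 without SSC KO replicate 1, and 0.0567 to 0.216 without any one of the other 10 libraries.

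Chromatin at the start sites was read from the deposited peak lists, in which 1 list of H3K4me3, a promoter mark, stood for each population and genotype, so no test was made. Of the 27 genes with a RefSeq start site, 26 had an H3K4me3 peak within 1000 bases in all 6 lists, beside 89.3% of the 11890 tested genes with a start site. Within each of the 6 lists, Eda2r had the lowest of the authors' fold enrichments among these 26. The exception was Gdf15, which had a peak in the SSC, pBCSP and BCSP KO lists (fold enrichment 5.99, 5.07 and 6.93) and none in the 3 WT lists. This layout occurred in 6 of the 11890 genes, or 0.0505%, and the opposite one in 0. The Gdf15 peaks had the lowest -log10 q of the 27 genes in each KO list, at 9.24, 5.1 and 10.8 in SSC, pBCSP and BCSP KO. The KO lists held 42399, 25468 and 38500 peaks and the WT lists 33510, 28612 and 32132 peaks in SSC, pBCSP and BCSP. The RNA estimate of Gdf15 was -0.77 ± 0.83 log2, as above.

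H3K4me1, a mark of enhancers and promoter flanks, had a peak within 1000 bases of the start in all 6 lists for 22 of the 27 genes, beside 67.9% of all genes. The other 5, Atr, Chek1, Mre11a, Eda2r and Gdf15, lacked it only in the SSC WT list, which held 75277 peaks against 113313 to 148530 in the other 5 lists. No gene of the 27 had an H3K27ac peak, a mark of active promoters and enhancers, in all 6 lists of the first set of libraries, beside 3.19% of all genes, nor in all 6 of the second set, beside 0% of all genes. The 12 H3K27ac lists held 137 to 8572 peaks, and the peak number limits what they can show at these promoters.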

How the data were processed

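RNA was measured in 12 poly(A)-selected libraries, 2 for each of 3 sorted populations and 2 genotypes, grouped by the labels. The authors deposited raw read counts, whole numbers for each gene, in 1 table of the whole series, in which 0 further sample columns were left unused. The ChIP peak lists, 1 per library from MNase-digested chromatin per the labels, hold the authors' deposited fold enrichment, -log10 p, -log10 q and score for each peak, and folds were compared within a list only. Per the submitters' processing notes, the tools were featureCounts 2.0.1, MACS2 2.2.6, Bowtie2 2.3.5.1, SAMtools 1.9 and Trim Galore 0.6.6, on build GRCm38. Their settings, the gene annotation and strand handling were not given in the sources used here, so antisense and overlapping genes, and reads shared with near-identical copies, cannot be told apart. The 12 input libraries were not used here.

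Counts were normalised by edgeR's TMM method, filtered with filterByExpr (17494 genes kept) and fitted with edgeR 4.0.16 in R 4.3.3 in 1 quasi-likelihood model with a mean per group (6 residual and 3.38 prior degrees of freedom, biological coefficient of variation 0.605). P-values were adjusted by Benjamini-Hochberg over all genes, with a threshold of 0.05, and differences are KO minus WT in log2 ± SE. CPM use the scaled library sizes and set no level of one gene against another, since lengths were not used. A count of 0 was taken to allow 3 counts, 0.134 to 0.208 CPM, which covers counting error only. Library medians use a prior count of 2. The model was tested on simulated counts of the average comparison over 17494 genes, 50 changed at each fold. At a dispersion of 0.3, genes changed 2-fold were called in 8% of cases, those changed 4-fold in 76% and those changed 8-fold in 100%, and 8 unchanged genes were called. This dispersion was below the fitted one and was the same in all genes and groups. No deviation was shared between same-numbered libraries. Recovery in the real data may therefore be lower and false calls more frequent. DESeq2 1.42.0 and further alternatives are given in the closing section. Peaks were set against RefSeq start sites (GRCm38.p6, matched by symbol) with a window of 1000 bases.

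Same-numbered KO and WT libraries did not deviate together (correlations of -0.14 to 0.05 over the 9 pairs of a KO and a WT group), so numbers pair no KO with a WT library. Same-numbered libraries of 1 genotype did (0.28 to 0.49 across populations), and the labels do not say whether they share animals. The main model holds no term for this shared deviation. Its errors of the average difference, and the adjusted p that rest on them, may therefore be too small. With counts summed over populations, edgeR called 0 genes. All 38 genes are accounted for. Levels in every library are given for 16 genes fixed by name and for the 4 smallest p of each list, and other comparisons name the 2 smallest p of each list. The genes and lists were chosen with earlier results of these data known. Genes in the replicate comparison were named after their values were seen.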

Additional observations from a re-analysis of the deposited data

Results flagged for a closer look

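For 3 break response genes both KO libraries lay above the WT mean in one population and below it in another, and the difference between populations did not pass the F test in edgeR for any of them. The share of all genes with such a layout was not counted. Brca1 had a KO minus WT difference of 0.87 log2 in BCSP and -0.0944 log2 in pBCSP (unadjusted p = 0.263, adjusted p = 1 for the difference between populations). Prkdc had 1.00 log2 in pBCSP and 0.49 log2 in BCSP, and -1.60 log2 in SSC (unadjusted p = 0.417, adjusted p = 1), where SSC KO replicate 2 was at 0. Fancd2 had 1.12 log2 in pBCSP and 0.68 log2 in BCSP, and -1.10 log2 in SSC (unadjusted p = 0.434, adjusted p = 1), where SSC KO replicate 2 had 0.0554 CPM, a single read.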

How the results depend on the processing

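The average count of 205 called genes was 140 with DESeq2-style size factors in edgeR, 141 with the replicate block, 1693 with DESeq2, 1882 without the filter on low counts, 661 with first KO libraries only, 9529 with second KO libraries only, 2870 with the replicate block within genotype, 0 with pBCSP and BCSP alone, 0 with counts summed over populations, and 0 to 6147 with single libraries left out. Called break response genes numbered 1 with DESeq2 (Topbp1), 1 with first KO libraries only (Rad50), 13 with second only, 1 with the block within genotype (Xrcc6) and 0 to 12 with single libraries left out. Called p53 targets numbered 1 with DESeq2 (Ccng1), 1 without the filter (Sesn1, adjusted p = 0.0297), 1 with first KO libraries only (Sesn2, adjusted p = 0.0239), 13 with second only, 3 with the block within genotype (Aen, Sesn1 and Ccng1) and 0 to 8 with single libraries left out. The replicate block called 0 of either list, its p53 target median was -0.53 log2, and it ended the call of Mgmt (adjusted p = 0.0600), as did DESeq2-style size factors (0.0512), pBCSP and BCSP alone (0.0654) and summed counts (0.591). The call of Paxip1 was lost with pBCSP and BCSP alone (0.0640) and summed counts (0.591). With first KO libraries only, the medians were -0.11 log2 for break response genes and 0.26 log2 for p53 targets, and with second only 0.13 and -2.20 log2. These settings, in which a lone KO library is assumed to vary like the other groups, and the block within genotype were chosen after seeing the data. That block takes up the spread between numbers, so its errors of KO minus WT are too small, and it called 0 genes within WT and between populations.

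For SSC, pBCSP and BCSP, DESeq2 called 174, 99 and 123 genes and the fit without a filter 395, 260 and 337. Second KO libraries only gave 8818, 2819 and 2977, and the block within genotype 91, 142 and 324. First KO libraries only gave 14 in pBCSP, and SSC gave 0 to 5908 with single libraries left out. The difference between populations had 3 calls with DESeq2, 50 without a filter, 4012 with second KO libraries only and 0 to 2082 with single libraries left out. WT pBCSP over WT SSC had 38, 133, 189 and 179 calls with DESeq2, without a filter, with first and with second KO libraries only, and WT BCSP over WT pBCSP had 29, 107, 316 and 320.

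These estimates changed sign, those of Brca1 and Bax from main estimates larger than their SE and those of Chek1, Cdkn1a and Pmaip1 from main estimates smaller than theirs. Rif1 was -0.0024 log2 with DESeq2-style size factors, -0.0027 with DESeq2, -0.0102 without a filter and -0.0563 with first KO libraries only. With first KO libraries only Mdc1 was 0.10, Brca1 -0.64, Bax -0.0308, Perp 0.64, Pmaip1 0.47, Trp53 0.0509 and Cdkn1a 0.16 log2. With pBCSP and BCSP alone Mdc1 was 0.0247, Chek1 0.12 and Mdm2 -0.068, with summed counts Atm was 0.0044, and with the replicate block Mdm2 was -0.0041 and Sesn2 -0.48, and within genotype -0.0049 and -0.54. With second KO libraries only Rif1 was -0.36, Atm 0.32, Fancd2 -0.76, Mdm2 -0.58 and Sesn2 -5.02. Leaving out single libraries gave -0.84 to 0.14 for Atm, -0.47 to 1.67 for Brca1, -0.86 to 0.71 for Fancd2, -3.47 to 0.0195 for Mdc1, -0.25 to 0.29 for Mdm2, -4.16 to 0.18 for Perp, -0.46 to 0.24 for Rif1, -4.12 to 0.40 for Sesn2 and -0.12 to 0.034 for Trp53. The causes were not tested. Topbp1, Ccng1, Sesn1, Xrcc5, Xrcc6, Trp53bp1, Phlda3 and Trp53inp1 kept their direction under all 21 alternatives. H3K4me1 peaks in every list fell to 0 of 27 genes when a peak had to cover the start itself, and to 0 with -log10 q of at least 10. Depth limits the genes under a few CPM, Brca1, Palb2 and Fancd2 among them.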
